A study of Mus musculus with 9 samples.

Results

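Helper and regulatory CD4 T cells were taken here as T cells of the gut suspension with Cd4 or Icos RNA and without Cd8a, Cd8b1 or Gzma RNA. Other cytotoxic transcripts were not gated on, and Gzmb had a UMI in 22.1% of the cells. A cell was counted as one when at most 15% of its UMIs (unique molecular identifiers, each 1 captured mRNA molecule) were mitochondrial, at least 200 genes were detected, Cd3d, Cd3e and Cd3g together gave at least 2 UMIs and Cd4 and Icos together at least 1, while Cd8a, Cd8b1, Gzma and Cd79a had none and Lyz2 had fewer than 5. Cells were chosen by these UMI counts alone, so the CD3, Cd4 and Icos levels below are a description. This gate held 946 of the 31759 cells kept from 37123 barcodes, which is 2.98% (exact 95% binomial interval 2.79 to 3.17%). Another 833 cells passed the CD3 threshold with a Cd8a, Cd8b1 or Gzma UMI and are called cytotoxic T cells below. Cd4 and Icos were not excluded from this class, and 6 to 120 of its cells per library had a UMI of either. It is therefore not a class free of helper cells.

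The study profiled CD11b+ lamina propria cells, a myeloid sort, of male C57BL/6 mice aged 7 to 8 weeks by droplet single-cell RNA-Seq in 9 libraries. T cells are therefore cells that passed this sort, and their numbers need not follow those in the tissue. Colon libraries came from wild-type specific pathogen free (SPF) mice (2 libraries), from germ-free (GF) mice (2), from mice given ampicillin, neomycin and metronidazole at 1 g/L each and vancomycin at 0.5 g/L for 1 week (1), and from mice given 2.5% dextran sulfate sodium (DSS), a colitis-inducing agent, for 7 days (1). A further colon library was labelled Nlrc4 deficient with the same DSS course, and 2 libraries came from the small intestine of normal mice, whose microbial status the labels do not state. The study describes its SPF colon cells as pooled from several mice, and the number of mice behind a library is not in its labels, so p-values measure only the spread between libraries, which may be technical.

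CD4 T cells recognise peptides on MHC class II molecules. Regulatory T cells are set by the transcription factor FOXP3 and restrain immune responses through CTLA-4 and interleukin 10, whereas Th17 cells make interleukin 17A and express the nuclear receptor RORα. The gut is a main site of both, and Th17 cells at mucosal surfaces are known to respond to particular commensal bacteria. OX40, the product of Tnfrsf4, is a costimulatory receptor of activated and regulatory T cells, and ICOS is a receptor of the CD28 family found on activated helper cells.

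The gate's own genes and markers it did not use are given here as a description. Over the 9 libraries the summed level of Cd3e in these cells was 237 to 540 CPM (counts of UMIs, scaled to the same total in every set of summed cells), against 6.37 to 47.2 CPM in all other kept cells, a difference the gate fixed. Among genes the gate did not use, Trac and Trbc2, constant genes of the αβ T cell receptor, were detected in 82.3% and 82.1% of cells, and Ctla4 and Tnfrsf4 in 67.9% and 51.2%. Cd4 itself had a UMI in 65.2% of cells and Icos in 87.0%. In all, 494 cells held both, 123 held Cd4 alone and 329 entered through Icos alone. Trdc, the constant gene of the γδ receptor, had a UMI in 42 cells, and 12 cells had none of Trac, Trbc1 and Trbc2. At the edge of the gate, 152 members had exactly 2 CD3 UMIs. Just outside it, 1 to 45 cells per library had 1 CD3 UMI, 0 to 4 had 5 to 9 Lyz2 UMIs, and 6 to 120 met every criterion but for a Cd8a, Cd8b1 or Gzma UMI.

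The cells were captured at a median of 4805 UMIs, and the summed UMIs per library ran from 172178 in GF colon 1 to 1353203 in DSS colon. Libraries held 57 and 129 cells in SPF colon, 35 and 139 in GF colon, 167 in antibiotics colon, 155 in DSS colon, 174 in the library labelled Nlrc4 deficient, and 30 and 60 in small intestine. No barcode of these cells was shared between libraries. RNA of other cell types was present unevenly: the summed level of 16 myeloid genes was 579 and 8088 CPM in SPF colon 1 and 2 and 386 to 9706 CPM over all libraries, and 57 cells held at least 20 UMIs of antigen-presenting genes or 5 of epithelial and stromal genes. Itgam, which encodes CD11b, had a UMI in 5.29% of the cells, at 0 to 37.7 CPM. Ncr1, a natural killer cell gene that the gate did not use, was at 0.

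In the library labelled Nlrc4 deficient, Nlrc4 was at 19.9 CPM over all kept cells, above the 2.42 to 16.5 CPM of the other libraries. The CD4 T cells gave only 9 Nlrc4 UMIs in all. A 3' tag does not show whether the transcript is functional, and the cause of this level was not tested. The library is named by its label throughout.

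CD4 T cells made up a larger share of colon than of small intestine suspensions. Their share of kept cells was 2.18% and 5.31% in SPF colon, 2.41% and 4.88% in GF colon, 6.86% in antibiotics colon, 3.72% in DSS colon, 2.60% in the library labelled Nlrc4 deficient, and 0.821% and 1.10% in small intestine. Both small intestine libraries were below every colon library, and the GF libraries lay within the SPF range. The small intestine mean was 0.959 ± 0.195% (SD, n = 2) against 3.74 ± 2.21% (SD, n = 2) in SPF colon (exact two-sided permutation test, p = 0.333, adjusted p = 0.444 over 12 comparisons). With 2 libraries against 2, 0.333 is the smallest p this test can give, so no share compared below could reach significance.

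The genes whose states were followed lie apart in the genome. On GRCm38, in 1-based GENCODE coordinates, Foxp3 spans chrX:7573644-7595245, Il17a chr1:20730905-20734496, Ctla4 chr1:60887000-60915832, Tnfrsf4 chr4:156013843-156016612 and Rora chr9:68653786-69388246. Icos, one of the gate's genes, is the neighbour of Ctla4 at chr1:60977927-61000320, and all of these on chromosome 1 are on the plus strand.

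Foxp3 marked a minority of cells in every library. It had a UMI in 139 of 946 cells, or 14.7% (12.5 to 17.1%), against 2.16% of cytotoxic T cells. Foxp3 cells were 22.8% and 15.5% of CD4 T cells in SPF colon, 14.3% and 18.0% in GF colon, 9.58% in antibiotics colon, 22.6% in DSS colon, 10.3% in the library labelled Nlrc4 deficient, and 13.3% and 5% in small intestine. SPF and GF colon overlapped (19.2 ± 5.16% and 16.1 ± 2.62%, SD, n = 2 each, exact permutation p = 0.667, adjusted p = 0.8). Exact binomial intervals, which cover counting error only, were 16.3 to 30.0% in DSS colon and 5.58 to 15.1% in antibiotics colon, and neither condition has a replicate. Because Foxp3 is a low transcript, with at most 18 UMIs in a cell, cells without a UMI can still express it.

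The share of Il17a cells was lowest in GF colon. Il17a had a UMI in 0 of 35 cells of GF colon 1, which allows a share of up to 8.57%, and in 5 of 139 cells (3.6%) of GF colon 2. Il17a cells were 17.5% and 11.6% in SPF colon, 13.8% in antibiotics colon, 7.74% in DSS colon, 8.05% in the library labelled Nlrc4 deficient, and 23.3% and 6.67% in small intestine. Both GF libraries were below all 7 others. The GF mean was 1.80 ± 2.54% against 14.6 ± 4.18% in SPF colon (SD, n = 2 each, exact permutation p = 0.333, adjusted p = 0.444). Small intestine, at 15 ± 11.8% (SD, n = 2), lay on both sides of SPF colon. In cytotoxic T cells, some of which also had Cd4 or Icos RNA, the share was 0.720%. Il17f, the gene of the related cytokine interleukin 17F, did not follow this order: it was at 31.1 and 8.39 CPM in SPF colon (1 and 5 cells) and at 0 and 41.5 CPM in GF colon (0 and 4 cells). Few cells carried most Il17a RNA: in the library labelled Nlrc4 deficient, 117 of 283 UMIs came from 1 cell.

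Ctla4, the inhibitory receptor that competes with CD28 for its ligands, ranged from 38.1 to 89.7% of cells between libraries. Its share was 75.4% and 84.5% in SPF colon, 40% and 38.1% in GF colon, 67.7% in antibiotics colon, 89.7% in DSS colon, 66.7% in the library labelled Nlrc4 deficient, and 66.7% and 58.3% in small intestine. DSS colon was highest and both GF libraries lowest. The GF mean of 39.1 ± 1.32% compared with 80.0 ± 6.40% in SPF colon (SD, n = 2 each, exact permutation p = 0.333, adjusted p = 0.444), and small intestine was at 62.5 ± 5.89%. Cytotoxic T cells had a Ctla4 UMI in 54.4% of cells, so Ctla4 was not restricted to helper cells. Their share was 55.1% and 71.6% in SPF colon, 22.0% and 23.9% in GF colon and 72.7% in DSS colon. There too DSS colon was highest and both GF libraries lowest, so this order was not particular to CD4 T cells.

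Tnfrsf4 followed a similar order, with the DSS libraries at the top. Its share was 50.9% and 58.1% in SPF colon, 25.7% and 31.7% in GF colon, 44.3% in antibiotics colon, 67.1% in DSS colon, 65.5% in the library labelled Nlrc4 deficient, and 36.7% and 40.0% in small intestine. The GF libraries (28.7 ± 4.20%) and the small intestine libraries (38.3 ± 2.36%) were both below SPF colon (54.5 ± 5.14%, SD, n = 2 each, exact permutation p = 0.333 and adjusted p = 0.444 for each). In cytotoxic T cells 13.4% had a UMI.

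Rora, which encodes RORα, was widespread. Its share was 89.5% and 86.8% in SPF colon, 40.0% and 60.4% in GF colon, 75.4% in antibiotics colon, 81.9% in DSS colon, 78.7% in the library labelled Nlrc4 deficient, and 70.0% and 58.3% in small intestine. SPF colon was above all other libraries by share. By level the order differed: Rora was at 1270 and 1670 CPM in SPF colon, 1649 CPM in antibiotics colon and 573 CPM in DSS colon, near the 494 and 894 CPM of GF colon. With every cell thinned to 1000 UMIs its share was 40% in DSS colon, 31.4% and 38.8% in GF colon and 61.4% and 67.4% in SPF colon, so DSS colon then stood near GF colon by share as by level. The GF mean share was 50.2 ± 14.4% against 88.1 ± 1.88% in SPF colon (SD, n = 2 each, exact permutation p = 0.333, adjusted p = 0.444). Rora was not restricted to helper cells, with a UMI in 62.2% of cytotoxic T cells against 74.7% of CD4 T cells. The cytotoxic share was the higher one in GF colon 1 (43.9%) and antibiotics colon (75.8%) and the lower one in all other libraries.

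**Figure D1:**
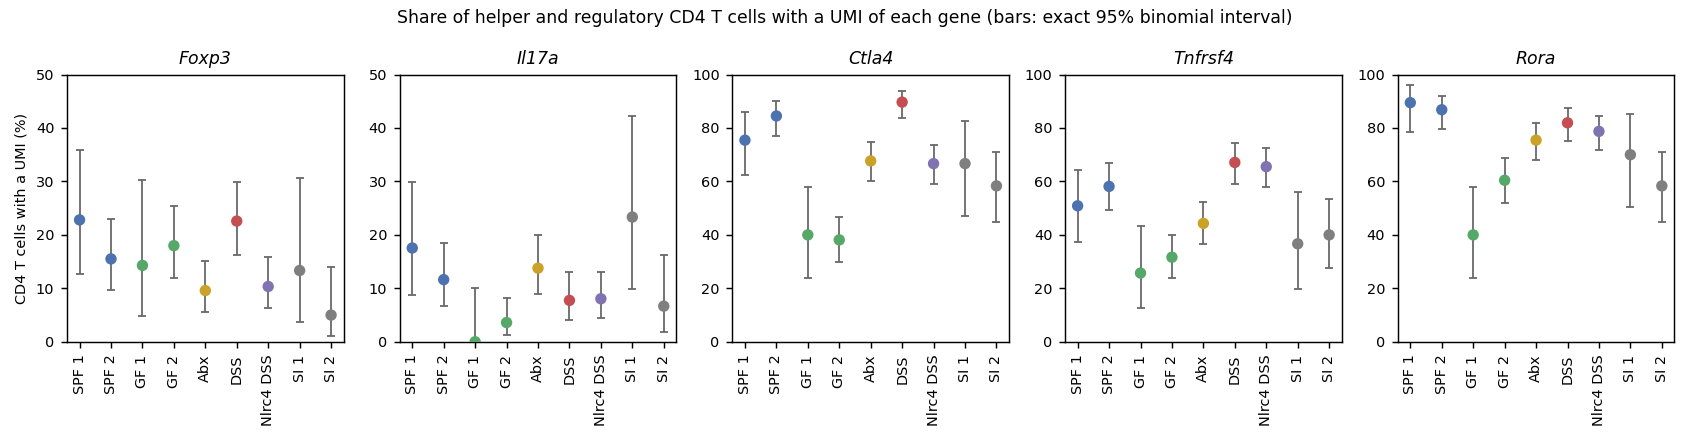
Share of CD4 T cells with at least 1 UMI of each of the 5 state genes (y axis, percent) in the 9 libraries (x axis; SPF, GF, Abx, DSS and Nlrc4 DSS are colon, SI is small intestine). Points are libraries and bars exact 95% binomial intervals, which cover counting error only; the GF points are the lowest for Il17a and Ctla4, at 0 and 3.6% and at 40 and 38.1%.

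Median UMIs per cell ran from 3942 in SPF colon 1 to 5680 in DSS colon. With every cell thinned to 1000 UMIs, Ctla4 was detected in 63.2% and 56.6% of cells in SPF colon, 22.9% and 22.3% in GF colon and 71.0% in DSS colon. Il17a was then at 14.0% and 9.30% in SPF colon and at 0 and 1.44% in GF colon. For both genes GF colon stayed below SPF colon. Tnfrsf4 was at 26.3% and 26.4% in SPF colon, 8.57% and 12.2% in GF colon, and 26.7% and 18.3% in small intestine, so small intestine and SPF colon then overlapped. Foxp3 was at 14.0% and 6.98% in SPF colon (8 of 57 and 9 of 129 cells) and 2.86% and 5.76% in GF colon (1 of 35 and 8 of 139 cells). These shares no longer overlapped, but they rest on few cells and a single random draw. No cell was lost to this thinning.

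Foxp3 and Il17a were found together in few cells. Over all libraries 130 cells had Foxp3 only, 81 Il17a only, 9 both and 726 neither. Foxp3 had a UMI in 10% of Il17a cells and in 15.2% of the others, a difference that was not tested. Median depth was alike, at 4932, 5140 and 4743 UMIs in Foxp3, Il17a and remaining cells. Trdc was found in 19 of the 90 Il17a cells (21.1%), in 0 of the 139 Foxp3 cells (which allows a share of up to 2.16%) and in 23 of the cells with neither. Il17f had a UMI in 30% of Il17a cells and 0.117% of the others.

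**Figure D2:**
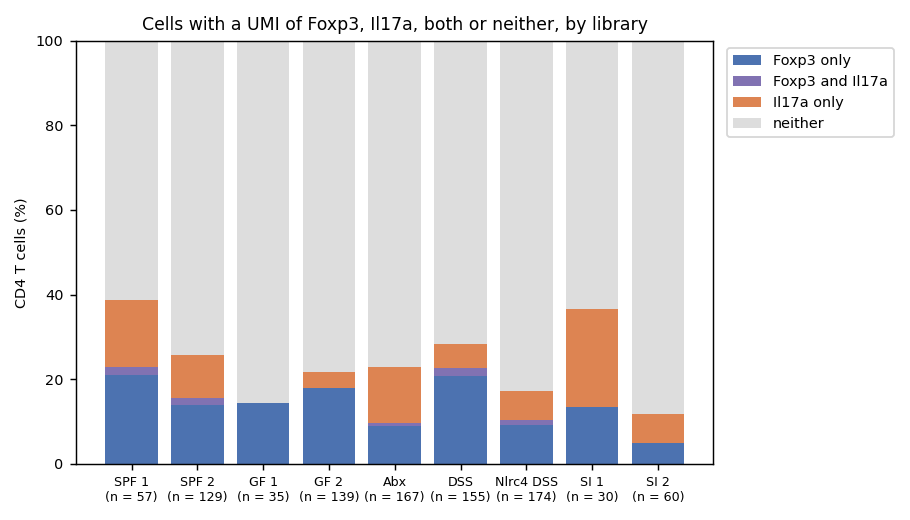
Percent of CD4 T cells (y axis) with a UMI of Foxp3 only, Il17a only, both or neither, in each library (x axis, n is the number of cells). The 9 cells with both genes came from SPF, antibiotics and DSS-treated colon, and GF colon 1 had no Il17a cell.

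What distinguished Foxp3 cells from the other CD4 T cells of the same library was asked by summing each state per library and fitting edgeR's quasi-likelihood test with library as a block, in the 6 colon libraries with at least 10 cells of each state. Regulatory genes were higher in Foxp3 cells and naive and Th1 genes lower. Of 3201 genes tested, 185 (5.78%) were higher and 231 (7.22%) lower at an adjusted p under 0.05. The split used Foxp3, and genes of the gate were left out. Genes that travel with Foxp3 were not measured independently of this split. A gene could also pass the filter on low counts through a single state, so counts of tested list genes that rose or fell are a description.

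Among 9 tested genes of the regulatory core list, 8 rose and none fell, with a median log2 fold change of 1.81 beside -0.02 over all genes. Ctla4 was at 5191, 3087, 1505, 4287, 4176 and 2999 CPM in Foxp3 cells of SPF colon 1, SPF colon 2, GF colon 2, antibiotics colon, DSS colon and the library labelled Nlrc4 deficient, and at 2038, 1147, 155, 987, 1962 and 614 CPM in the other cells. It was higher in Foxp3 cells in 6 of 6 libraries (log2 fold change 1.81 ± 0.19 SE, edgeR adjusted p = 3.06e-06). Ikzf2, which encodes the regulatory T cell factor Helios, was at 1029 ± 161 CPM against 260 ± 46.9 CPM (SD, n = 6, log2 fold change 1.90 ± 0.16 SE, edgeR adjusted p = 3.23e-07). Tnfrsf4 rose by 1.62 ± 0.24 SE and Tnfrsf9, the gene of the costimulatory receptor 4-1BB, by 2.48 ± 0.28 SE on the log2 scale. Il2ra, the high-affinity interleukin 2 receptor chain CD25, Tnfrsf18, Izumo1r and Capg were the other members that rose.

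The tissue regulatory list gave 5 higher genes of 7. Il10 was at 521 to 1886 CPM in Foxp3 cells and at 63.1 to 410 CPM in the others, with no overlap (log2 fold change 2.59 ± 0.32 SE, edgeR adjusted p = 1.75e-05). By cells, 66.2% of Foxp3 cells and 16.6% of the others had an Il10 UMI. Itgae, the integrin chain CD103 that binds epithelial E-cadherin, was at 154 ± 36.9 against 21.8 ± 14.0 CPM (SD, n = 6, log2 fold change 3.0 ± 0.29 SE). Il1rl1, the receptor of interleukin 33, and Areg, the epidermal growth factor receptor ligand amphiregulin, rose by 2.17 and 1.3 on the log2 scale, each in 5 of 6 libraries. The transcription factor Maf rose by 1.12 ± 0.15 SE. Outside these lists, the integrin chain Itgav, the ecto-nucleotidase gene Nt5e, which encodes CD73, the homeobox gene Hopx and Il6st, the gp130 receptor chain, rose by 2.17, 2.29, 2.37 and 2.08 on the log2 scale, in 6 of 6 libraries each.

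Genes of helper effector and naive programs were lower in Foxp3 cells. Of 8 naive and central memory genes 7 fell and none rose. Tcf7, which encodes the T cell factor TCF-1, was at 0 in Foxp3 cells of 4 libraries and at 14.4 and 21.3 CPM in the other 2, against 137 to 278 CPM in the remaining cells (log2 fold change -5.19 ± 0.43 SE, edgeR adjusted p = 3.23e-07). Lef1, Satb1, Bach2, Klf2, S1pr1 and Ccr7 were the further members that fell. Of 10 Th1 genes 7 fell: Ifng, the cytokine interferon γ, was at 16.9 ± 20.4 against 254 ± 186 CPM (SD, n = 6, log2 fold change -4.29 ± 0.43 SE), and Ccl5 and Cxcr6 fell by 2.91 and 2.35 on the log2 scale. Il17a was at 59.9 ± 73.6 against 210 ± 121 CPM (log2 fold change -1.93 ± 0.33 SE, edgeR adjusted p = 0.000475). Rora did not pass the test, at 1418 ± 457 and 1134 ± 460 CPM (adjusted p = 0.174).

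The granzyme gene Gzmb, a cytotoxic effector that regulatory T cells can also use, was higher in Foxp3 cells in 5 of 6 libraries (log2 fold change 1.69 ± 0.30 SE, edgeR adjusted p = 0.000648). Its values in Foxp3 and other cells were 1007 and 144 CPM in SPF colon 1, 464 and 121 CPM in SPF colon 2, 106 and 18.0 CPM in GF colon 2, 457 and 70.2 CPM in antibiotics colon and 539 and 154 CPM in the library labelled Nlrc4 deficient. In DSS colon the order was turned, at 1022 and 1148 CPM. The remaining cytotoxic genes tested, Ccl5 and Nkg7, fell. Among 11 interferon response genes 4 rose, among them Iigp1 by 1.51 on the log2 scale, and among 9 cell cycle genes 3 fell. Of 8 myeloid genes only Ifitm3 was called, and it was lower. With a Cd4 UMI required, Gzmb was at 1.29 (edgeR adjusted p = 0.0531) and Il17a at -1.25 (adjusted p = 0.0702), and the Ifitm3 call was lost without any 1 of 5 libraries.

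**Figure D3:**
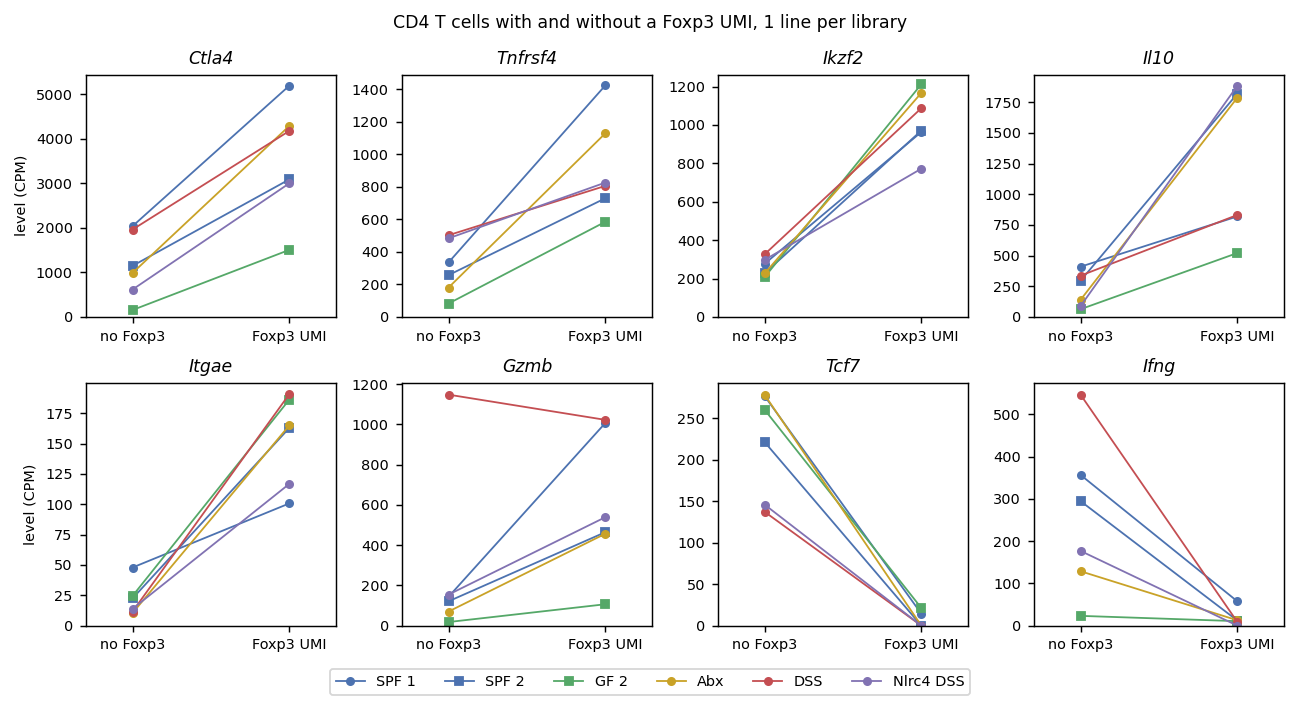
Level of 8 genes (y axis, CPM from 0) in CD4 T cells without and with a Foxp3 UMI (x axis), 1 line per library for the 6 libraries with at least 10 cells of each state. Lines for Ctla4, Tnfrsf4, Ikzf2, Il10 and Itgae rise in every library, those of Tcf7 and Ifng fall, and Gzmb rises in all but DSS colon.

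Ctla4 was lower in GF colon in both states. In Foxp3 cells it was at 5191 and 3087 CPM in SPF colon and at 1394 and 1505 CPM in GF colon, where every Foxp3 cell (5 and 25) still had a Ctla4 UMI. In cells without Foxp3 it was at 2038 and 1147 CPM in SPF colon against 338 and 155 CPM in GF colon, and the share with a UMI was 68.2% and 81.7% against 30.0% and 24.6%. SPF and GF libraries did not overlap in either state. With both states summed, 32.5% of all tested genes were lower in GF colon without overlap. This share was not computed within either state, so the lack of overlap alone says little. The smaller GF library held only 5 Foxp3 cells. The difference between states was not tested.

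Il17a cells were compared with the other CD4 T cells in the same way in the 5 libraries with at least 10 of them, which were both SPF colon libraries, antibiotics colon, DSS colon and the library labelled Nlrc4 deficient. Type 17 genes rose together. Of 2808 genes 81 (2.88%) were higher and 20 (0.712%) lower at an adjusted p under 0.05. Of 16 listed Th17 genes 10 were tested, and a gene could pass the filter on low counts through Il17a cells alone. Of the 10 tested, 7 rose and none fell, at a median log2 fold change of 2.31 beside -0.02 over all genes.

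Il22, whose product interleukin 22 acts on epithelial cells, was at 143, 207, 283, 230 and 366 CPM in Il17a cells and at 31.5, 24.7, 16.6, 0.801 and 8.31 CPM in the other cells, in the order in which the libraries are listed above (log2 fold change 4.34 ± 0.48 SE, edgeR adjusted p = 0.000278). It was detected in 23.3% of all Il17a cells and in 1.87% of the others. Il1r1, the interleukin 1 receptor, was at 124 ± 26.1 against 18.6 ± 8.62 CPM (SD, n = 5, log2 fold change 2.74 ± 0.31 SE), and Rora at 2218 ± 589 against 1098 ± 424 CPM (log2 fold change 1.08 ± 0.12 SE, edgeR adjusted p = 0.000278). Rora was thus higher in all 5 libraries, and 89 of 90 Il17a cells had a Rora UMI. Il23r, the receptor of interleukin 23, was found in 23.3% of Il17a cells and 2.80% of the others.

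Areg and Tnfsf11, the gene of RANKL, were also higher (log2 fold change 2.19 and 1.42), Areg in 4 of 5 libraries and most in the library labelled Nlrc4 deficient, at 1394 against 120 CPM. Without that library Areg was at 1.60 (edgeR adjusted p = 0.083), and DESeq2 did not call it (adjusted p = 0.168). Of 16 activation and dissociation genes 6 rose, among them Jun at 350 ± 70.3 against 143 ± 33.8 CPM (SD, n = 5) and Fos at 645 ± 270 against 337 ± 133 CPM. Of 12 listed genes of unconventional T cells 3 passed the filter on low counts, which a gene can pass through Il17a cells alone. All 3 rose, with Tcrg-C1, a γ chain constant gene, at 138 ± 51.1 against 20.4 ± 20.2 CPM (log2 fold change 3.06 ± 0.55 SE), Cd163l1 by 3.22 and Trdc by 2.61 on the log2 scale. The Trdc call was lost without SPF colon 1, DSS colon or the library labelled Nlrc4 deficient (adjusted p = 0.0876, 0.0963 and 0.0598). Without the cells that held Trdc, 55 genes were called in place of 101. Il22, Il1r1, Rora and Areg were still higher then, by 4.52, 2.88, 1.06 and 1.88 on the log2 scale. With a Cd4 UMI required of every cell only 2 genes were called, one of them Ccl5, and Rora was at 0.90 (edgeR adjusted p = 0.108).

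Lower in Il17a cells were Ccl5, at 8.03 ± 12.6 against 642 ± 644 CPM (SD, n = 5, log2 fold change -6.09 ± 0.45 SE, edgeR adjusted p = 6.26e-06), and Nkg7, Lef1, S1pr1, Cd27 and Ikzf2, which fell by 2.06, 3.08, 2.04, 1.87 and 1.35 on the log2 scale. Tnfrsf4 was at 184 ± 48.2 against 499 ± 169 CPM and lower in 5 of 5 libraries (log2 fold change -1.29 ± 0.24 SE, edgeR adjusted p = 0.00831). Without Trdc cells Tnfrsf4 was at -0.85 (edgeR adjusted p = 0.187) and Cd27 at -1.25 (adjusted p = 0.079), in a fit that also lacked SPF colon 1 and the library labelled Nlrc4 deficient. Without the antibiotics library Nkg7, S1pr1 and Cd27 lost their calls (adjusted p = 0.0712, 0.0726 and 0.0592), as did Nkg7 without SPF colon 2 or DSS colon (adjusted p = 0.0608 and 0.167). Ctla4 (1959 ± 851 and 1764 ± 825 CPM, adjusted p = 0.585) and Foxp3 (adjusted p = 0.838) did not pass the test.

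**Figure D4:**
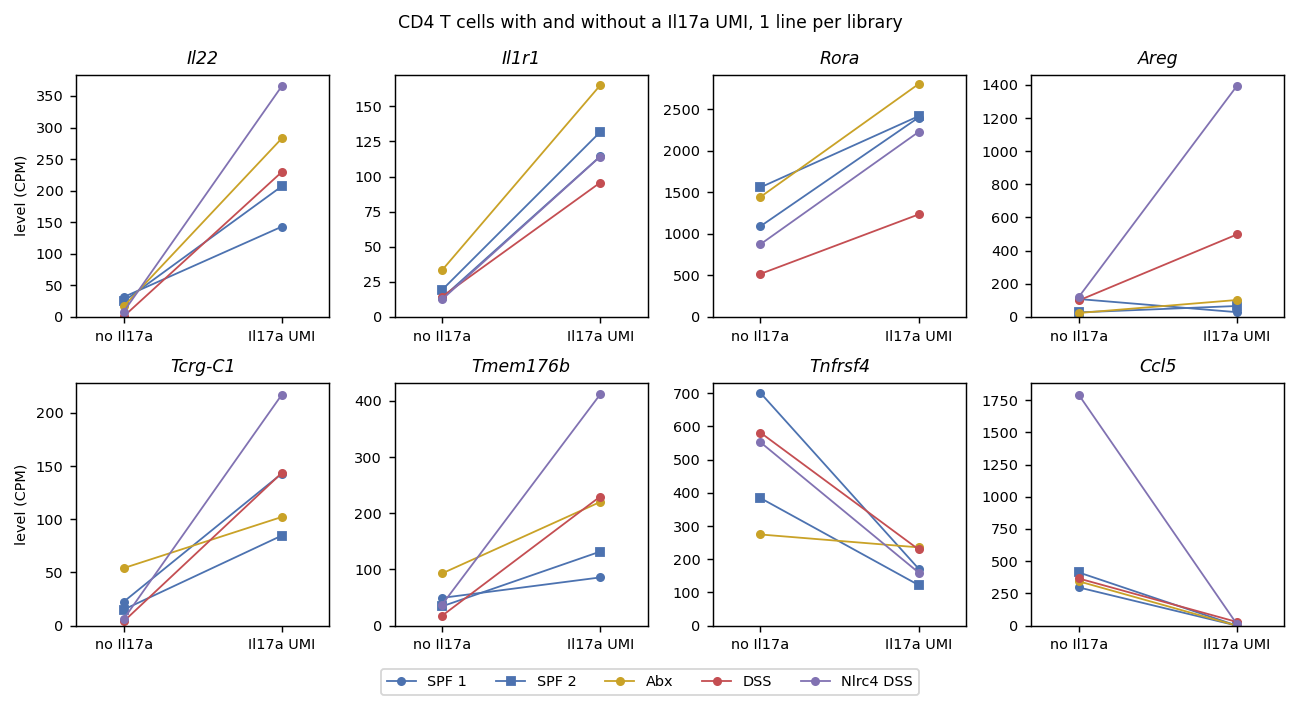
Level of 8 genes (y axis, CPM from 0) in CD4 T cells without and with an Il17a UMI (x axis), 1 line per library for 5 colon libraries. Il22, Il1r1, Rora, Tcrg-C1 and Tmem176b rise in every library, Tnfrsf4 and Ccl5 fall in every library, and Areg falls in SPF colon 1 (108 to 28.6 CPM) and rises in the other 4.

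Whether CD4 T cells of GF colon differed from those of SPF colon was tested on the summed cells of 2 libraries a group, with edgeR's quasi-likelihood test on the 6 libraries of the replicated groups. No gene of 4337 was called (0%), while 402 had an unadjusted p under 0.05 and DESeq2 called 83. Deviations of libraries with the same replicate number correlated at 0.14 to 0.26, but the labels name no shared batch. Replicate 1 was also the library with fewer cells and less myeloid RNA in each of these groups. With the replicate number as a block 68 genes (1.57%) were higher and 26 (0.599%) lower in GF colon. Of the 68, 58 encoded ribosomal proteins, whose share of all UMIs was 28.9% and 25.4% in GF colon and 18.9% and 15.3% in SPF colon. Between these libraries 32.5% of all tested genes were lower and 12.4% higher in GF colon without overlap, so a lack of overlap is common here. In bulk sums, fewer cells in a state and less RNA per cell in that state cannot be told apart.

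The genes lower in GF colon under the block included effector and checkpoint genes. They are named here after their values were seen, since no gene met the rule for naming. Ctla4 was at 2889 and 1532 CPM in SPF colon and at 505 and 418 CPM in GF colon (log2 fold change -2.06 ± 0.41 SE, adjusted p = 0.108 without and 0.006 with the block). Maf, a factor of interleukin 10 and Th17 programs, was at 1282 and 1179 against 331 and 326 CPM (adjusted p = 0.0799 without and 0.0073 with the block). Ifng was at 276 and 238 against 5.81 and 20.7 CPM, and Gzmb at 377 and 189 against 5.81 and 35.3 CPM, where 5.81 CPM is 1 UMI (adjusted p = 0.0249 and 0.0142 with the block). Il17a was at 229 and 261 against 0 and 21.8 CPM (adjusted p = 0.108 without and 0.023 with the block).

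The chemokine receptor genes Cxcr3 and Ccr2, the checkpoint gene Lag3, the adhesion glycoprotein gene Thy1 and the residency regulator Rgs1 were likewise lower with the block. Lag3 was at 276 and 108 against 11.6 and 21.8 CPM, Thy1 at 614 and 576 against 134 and 131 CPM. Il10 (520 and 599 against 5.81 and 152 CPM, adjusted p = 0.203 without and 0.0634 with the block), Rora (adjusted p = 0.423 and 0.0575), Tnfrsf4 (adjusted p = 0.484 and 0.122) and Foxp3 (148 and 86.2 against 52.3 and 78.8 CPM, adjusted p = 0.827 and 0.766) did not pass in either fit.

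By list, the median log2 fold change in GF colon was -1.70 over 11 Th1 genes, -0.96 over 10 Th17 genes, -0.74 over 12 regulatory core genes and -1.10 over 12 cytokine genes, beside 0.03 over all genes. Under the block 3 of the Th1 genes (Ifng, Cxcr3, Nkg7), 2 of the Th17 genes (Il17a, Maf) and 1 of the regulatory core (Ctla4) were lower and none was higher. The 10 tested naive and central memory genes had a median of 0.91 and all 10 were above 0, though none was called in either fit. Lef1, a naive cell factor, was at 155 and 70.7 against 215 and 250 CPM, and S1pr1, the receptor for egress from tissue, at 183 and 87.4 against 209 and 335 CPM. Ccr7, the lymph node homing receptor, overlapped at 555 and 407 against 424 and 750 CPM.

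Other RNA also moved between these libraries. All 8 tested myeloid genes had a fold above 0 in GF colon (median log2 fold change 1.06), with Cst3 at 101 and 979 against 581 and 1038 CPM, and mixed cells were 1.75% and 10.1% of SPF colon and 5.71% and 10.8% of GF colon. Igha, an immunoglobulin gene of plasma cells, was at 707 and 301 against 128 and 39.4 CPM. Of the 57 mixed cells of all 9 libraries, 1 and 13 were in SPF colon, 2 and 15 in GF colon and 0 and 3 in small intestine. Without the mixed cells, edgeR called 49 genes (1.2% of 4076), 20 higher (0.491%) and 29 lower (0.711%) in GF colon. Ctla4, Maf, Ifng, Gzmb, Lag3, Thy1 and Il17a were among those lower.

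**Figure D5:**
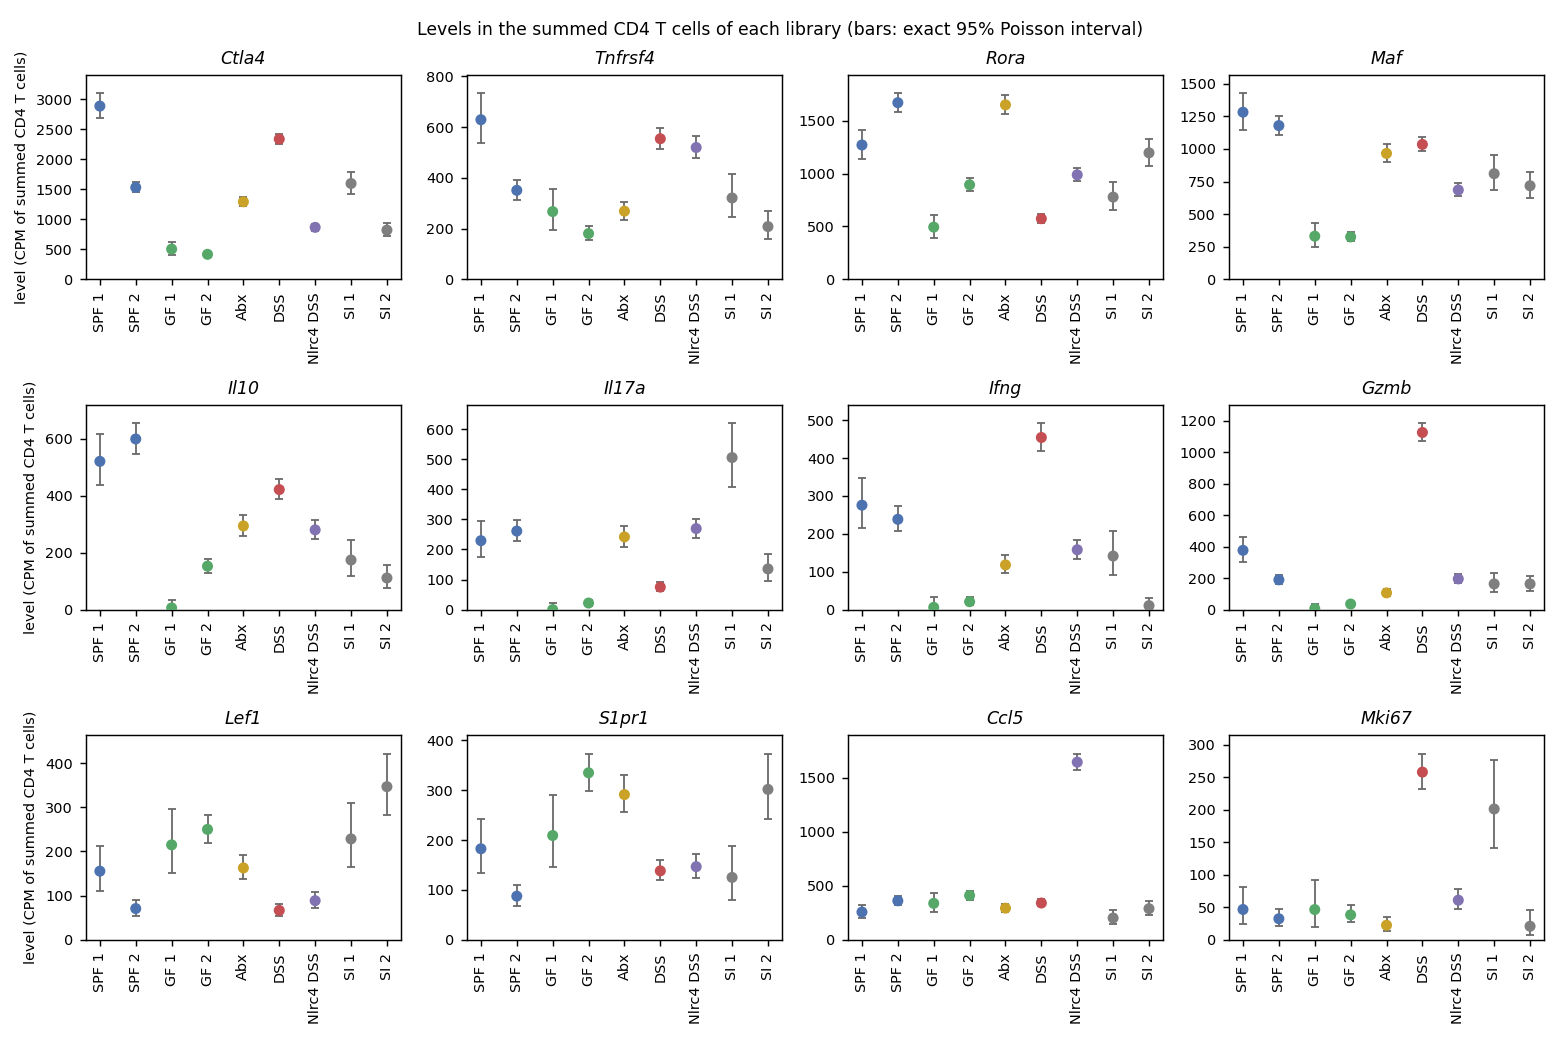
Level of 12 genes (y axis, CPM from 0) in the summed CD4 T cells of each library (x axis, labels as in the share plot), with exact 95% Poisson intervals that cover counting error only. GF colon is lowest for Ctla4, Maf, Il17a and Gzmb, DSS colon stands highest for Gzmb, Ifng and Mki67, and the library labelled Nlrc4 deficient for Ccl5.

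Small intestine and SPF colon CD4 T cells were compared in the same fit, a comparison in which the microbial status of the small intestine mice was not given. No gene of 4337 was called (0%) by edgeR without or with the block, nor by DESeq2, and 288, 427 and 148 genes had an unadjusted p under 0.05. Lef1 was at 228 and 347 CPM in small intestine against 155 and 70.7 CPM in SPF colon, and Tcf7 at 261 and 506 against 206 and 177 CPM. Cxcr3 was at 10.9 and 10.4 against 73.8 and 69.5 CPM, and Il10 at 174 and 111 against 520 and 599 CPM. SPF colon and small intestine did not overlap for these genes, as was so for 22.0% of genes that were lower and 12.4% that were higher. Il17a, at 506 and 135 CPM, and Ccr9, the small intestine homing receptor, at 190 and 45.1 CPM, lay on both sides of SPF colon (229 and 261, and 66.0 and 49.1 CPM). All 11 tested Th1 genes were below 0 (median log2 fold change -0.79) and 7 of 10 naive and central memory genes above it (median 0.74). The small intestine libraries themselves stood apart, with Mki67 at 201 and 20.8 CPM, Ccr7 at 54.4 and 790 CPM and Igha at 3665 and 790 CPM.

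Conditions with 1 library had no replicate, so their values are given with Poisson intervals in the plot of levels and as log2 ratios to the mean of the SPF colon libraries after adding 20 CPM, with no test. A gene was counted when its ratio was at least 1 in size and it lay outside both SPF libraries. After antibiotics, 14 genes (0.194% of 7211) were counted as higher and 21 (0.291%) as lower, the fewest of the 3 conditions set against SPF colon. Il17a, at 242 CPM, lay within the SPF range, as did Rora. Foxp3 (69.6 CPM), Ctla4 (1293 CPM) and Tnfrsf4 (269 CPM) were below both SPF libraries, by 0.61, 0.76 and 0.82 as log2 ratios. Lag3 (49.5 CPM against 108 to 276), Izumo1r, Gzmb (106 CPM against 189 to 377), Nkg7 and Ifng (118 CPM) were lower. Il7r, the interleukin 7 receptor, at 440 CPM against 136 and 268, Il23r at 27.1 CPM against 0 and 5.99, and Trdc at 139 CPM against 97.1 and 16.8 were higher. Cells with Trdc were 13 of 167 there and 5 of 57 and 2 of 129 in SPF colon, so by share of cells antibiotics colon lay within the SPF range. With a Cd4 UMI required, the Il17a log2 ratio to SPF colon went from -0.02 to -1.24 after antibiotics, from -1.49 to -2.29 in DSS colon and from 0.13 to -0.59 in the library labelled Nlrc4 deficient.

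DSS colon gave 179 higher (2.25% of 7949) and 124 lower (1.56%) genes. Proliferation genes stood out: 10 of 14 tested cell cycle genes were counted as higher and none as lower, at a median log2 ratio of 1.38 beside 0.02 over all genes. Mki67 was at 258 CPM against 46.6 and 32.3 CPM in SPF colon and had a UMI in 30.3% of cells against 10.5% and 6.20%. Birc5, a mitotic regulator, was at 125 CPM against 15.5 and 5.99 CPM. Gzmb was at 1126 CPM, with a UMI in 53.5% of cells against 19.3% and 22.5%, and Ifng at 454 CPM, both above all other libraries. The chemokine genes Ccl4 and Ccl3 were at 570 and 276 CPM, but a single cell held 450 of the 771 Ccl4 UMIs, and 1 cell held 20.1% of the Gzmb UMIs.

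Of 10 naive and central memory genes 5 were counted as lower in DSS colon (Ccr7, Igfbp4, Bach2, Il7r and Klf2) and none as higher, at a median log2 ratio of -1.13. Of 13 Th17 genes 3 were lower (Il17a, Rora and Tmem176a) and 2 higher (Batf and Il21). Il17a was at 74.6 CPM against 229 and 261 CPM (log2 ratio -1.49) and Rora at 573 CPM against 1270 and 1670 CPM (log2 ratio -1.33). Ccr7 was at 80.5 CPM against 555 and 407 CPM and Bach2 at 22.9 CPM against 73.8 and 163 CPM. Ctla4 (2340 CPM) and Tnfrsf4 (554 CPM) lay within the SPF range, and Foxp3 (85.7 CPM) just below it. S100a9, a neutrophil gene, was at 29.6 CPM against 3.88 and 3.59 CPM, and Igkc at 1847 CPM against 602 and 211 CPM; their part in the other differences was not tested.

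The library labelled Nlrc4 deficient, also given DSS, gave 70 higher (0.934% of 7492) and 67 lower (0.894%) genes against SPF colon, and against DSS colon 88 (1.12% of 7877) and 152 (1.93%). None of the 13 cell cycle genes was counted against SPF colon, and Mki67 was at 60.9 CPM. Some genes lay on the same side of SPF colon in both DSS-treated libraries: Ccl4 was at 314 CPM and Ccl3 at 156 CPM, both higher than in SPF colon, and Igfbp4 at 19.0 CPM and Penk at 14.3 CPM, both lower. Both comparisons share the SPF libraries. Il17a was at 269 CPM, above DSS colon by a log2 ratio of 1.61, though 1 cell held 117 of its 283 UMIs. Ctla4 was at 867 CPM, below SPF colon (log2 ratio -1.33) and DSS colon (-1.41), Foxp3 at 43.8 CPM (-1.10 and -0.73), and Tnfrsf4 at 520 CPM, within the SPF range. Gzmb was at 195 CPM, lower than DSS colon by 2.41.

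Ccl5, a chemokine gene of memory T cells, was at 1643 CPM there against 256 and 361 CPM in SPF colon and 340 CPM in DSS colon, and had a UMI in 47.1% of cells. Tnfsf8, the gene of CD30 ligand, was at 330 CPM against 62.8 CPM in DSS colon. Of 16 activation and dissociation genes 7 were lower than in SPF colon, among them Fos at 165 CPM against 579 and 350 CPM. The largest log2 ratios to SPF colon were those of Timp3 (4.04), the interferon-induced gene Ifitm3 (2.55, at 363 CPM) and Mmp3 (2.40). For the stromal genes Timp3 and Mmp3, 1 cell each held 323 of 325 and 90 of 90 UMIs.

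Helper and cytotoxic T cells of the same 9 libraries were set against each other with library as a block. Genes of the gate were left out, and genes that travel with Gzma, Cd8a or Icos are not independent of it. Here too a gene could pass the filter on low counts through a single class. Of 5846 genes, 366 (6.26%) were higher and 270 (4.62%) lower in CD4 T cells. Regulatory core genes rose in 8 of 10 and Th17 genes in 6 of 8, and all 6 tested cytotoxic genes fell. The state genes were all higher, Il17a by 5.18, Foxp3 by 3.04, Tnfrsf4 by 2.51, Ctla4 by 1.70 and Rora by 1.09 on the log2 scale.

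Of 10 cytokine genes 7 rose and none fell, with Il10 at 284 ± 197 against 24.0 ± 19.0 CPM (SD, n = 9, log2 fold change 3.50 ± 0.26 SE, edgeR adjusted p = 8.19e-08), Tnfsf8 at 188 ± 112 against 22.2 ± 17.6 CPM and Areg at 93.1 ± 68.5 against 11.5 ± 10.9 CPM, each higher in 9 of 9 libraries. Maf and Cd40lg, the ligand through which helper cells act on B cells, rose by 2.86 and 2.63 on the log2 scale. Lower in CD4 T cells were Ccl5 at 459 ± 448 against 6836 ± 3817 CPM, Cd7, Klrd1, Xcl1 and Nkg7, in 9 of 9 libraries. Itgae fell by 2.06 ± 0.31 SE and Itga1, the integrin chain of the collagen receptor VLA-1, by 2.46 ± 0.32 SE, whereas within CD4 T cells Itgae was higher in Foxp3 cells. Among 9 myeloid genes Fcer1g and Tyrobp were lower and Cst3 and H2-Ab1 higher, and Cst3 was at -0.01 without the mixed cells.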

How the data were processed

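CD11b+ cells of 9 mouse gut libraries were sequenced with 10x Genomics 3' chemistry. The deposited values are raw UMI counts per gene and barcode, made by the authors with Cell Ranger 3.0.2 (per the file headers) and STAR 2.5.1b on mm10 (per the submitters' processing notes); cell calling was done before deposit. Cells were filtered as in the study's methods, and doublets were not called. Members' counts were summed per library (10 gate genes left out of fits) and tested with edgeR 4.0.16 quasi-likelihood and TMM normalisation, after filterByExpr, with Benjamini-Hochberg adjustment at 0.05. DESeq2 1.42.0 was an alternative, with other cell filters, no filter on low counts, a replicate block, thinning and each replicate left out. Scripts were tested on simulated data. Deviations of same-numbered libraries from their group means correlated at 0.25, 0.26 and 0.14 over the 3 pairs of groups. Replicate numbers come from the sample titles, and the labels do not say whether same-numbered libraries were prepared together. The block by replicate number is therefore an alternative fit only. Replicates differed beyond sampling noise. Intervals (95%, exact) and floors (3 counts) cover counting error only. Named genes were the 5 state genes, the gate's markers, the 10 largest changes in each direction among called genes at a mean of at least 50 CPM and up to 4 called genes per list; single-library genes needed at least 20 UMIs. Further list members, genes of the replicate-block fit and genes given by share of cells only were named after their values were seen. Immunoglobulin, mitochondrial, ribosomal protein, receptor variable and identifier-only genes were counted but not named, save where values of other cells are given. The members, 21 gene lists and rules were chosen with earlier results of these data known.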

Additional observations from a re-analysis of the deposited data

Results flagged for a closer look

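Nlrc4 was at 19.9 CPM over all kept cells of the library labelled Nlrc4 deficient, a signal outside the T cell comparisons and above the 10.8 CPM of DSS colon. Counting 3' tags cannot show whether the transcript is functional, and the cause was not tested.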

How the results depend on the processing

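Among the shares, only thinning to 1000 UMIs and requiring Cd4 moved the mean over the 9 libraries by more than the replicate spread. Thinning took Foxp3 from 14.6 to 5.84%, Ctla4 from 65.2 to 43.7%, Tnfrsf4 from 46.7 to 22.0% and Rora from 71.2 to 46.6%, and a required Cd4 UMI took Tnfrsf4 to 53.7%. This mean does not show whether a difference between groups moved. GF against SPF colon, with no call in the main fit, gave 94 with the replicate block, 83 by DESeq2 (4036 genes had no adjusted p), 168 with no filter on low counts, 49 without mixed cells, 18 with 0 Lyz2 UMIs, 12 in a fit of only the 4 libraries compared, 10 with Cd4 required, and 4 to 23 with 1 library left out (4 without GF colon 2, 23 without GF colon 1). Small intestine against SPF colon gave 45 calls with no filter and 0 in every other alternative run. Foxp3 cells against the others (416 calls) gave 238 with Cd4 required, 732 with no filter and 134 without the library block. Il17a cells (101 calls) gave 2 with Cd4 required, 191 with no filter, 31 without the library block, 20 thinned, 55 without Trdc cells, and 51 to 85 with 1 library left out (51, 63 and 61 without the antibiotics, DSS and Nlrc4-labelled libraries). A library with fewer than 10 cells of a state left each fit. Thinning so left SPF colon 2, antibiotics and the Nlrc4-labelled library, and removing Trdc cells left SPF colon 2, antibiotics and DSS. Fewer calls there cannot be told apart from fewer libraries. CD4 against cytotoxic T cells (636 calls) gave 989 with no filter and 203 without the library block. Counts for single-library conditions moved most with a pseudocount of 5 CPM: antibiotics from 35 to 238, DSS from 303 to 969, the Nlrc4-labelled library from 137 to 512 and, against DSS, from 240 to 762. Requiring Cd4 gave 72 for antibiotics and 490 for DSS, and 0 Lyz2 UMIs gave 373 for the Nlrc4-labelled library against DSS. Cst3, higher in CD4 than cytotoxic T cells, was at -0.01053 (log2 fold change) without mixed cells, the 1 reversal of a named gene that either fit called. Of the alternative values of single named genes, 2349 were classed as unchanged and 339 lost the call. The unchanged class includes changes of sign where neither fit called the gene, and single-library log2 ratios, which have no test. The cause of these changes was not tested, except that fewer or more genes, cells or libraries entered by construction. The Foxp3 comparison could not be fitted after thinning because too few cells kept a Foxp3 UMI. All members had at least 1000 UMIs, so a 1000-UMI minimum changed nothing. Small libraries (30 and 35 cells) limit every share of a rare state.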
